A study of Mus musculus with 27 samples.

Results

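The nuclear factor I (NFI) family consists of 4 genes in the mouse, Nfia, Nfib, Nfic and Nfix. All 4 were found by gene symbol among the 24825 rows of the deposited expression files and are described here in all 9 groups of samples. The RNA came from C2C12 cells, an established mouse myoblast line, in 3 forms: control cells, cells infected with a pMXs retrovirus for 3xFLAG-tagged full-length NFIA, and cells infected with one for its Δpro#3 mutant, which lacks the C-terminal end of the protein. What vector the control cells carried was not given in the sources used here. Polyadenylated RNA was sequenced at day 0, at day 7 of adipogenic culture, and at day 7 after 4 h with 10 µM forskolin, an activator of adenylyl cyclase that raises cyclic AMP, with 3 replicates in each group. Per the labels of these samples, all cells, control cells included, received the same adipogenic cocktail from confluence on (isobutylmethylxanthine, indomethacin, dexamethasone, insulin, T3 and rosiglitazone, then only insulin, T3 and rosiglitazone). Isobutylmethylxanthine itself raises cyclic AMP, and the introduced genes were driven by the viral promoter, so Nfia measures mainly the introduced gene in the infected cells while Nfib, Nfic and Nfix are genes of the cell. Values are FPKM, the fragments of a gene per kilobase of its length, scaled to the fragments counted in the sample, which makes levels comparable between genes. Whether replicates were separate cultures was not stated, so p-values measure only the spread between these samples.

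NFI proteins bind DNA as homodimers or heterodimers through a closely similar N-terminal domain, at a palindrome or at either arm of it, while their C-terminal transactivation domains differ more. NFIA drives the brown adipocyte program, NFIX is known in muscle for the switch from embryonic to fetal gene expression, NFIB acts in lung and brain development, and NFIC in tooth root formation.

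The members lie apart in the genome (build NCBIM37, the same as mm9). Nfia is at chr4:97439425-97868605 on the plus strand, Nfib at chr4:81936077-82351654, Nfic at chr10:80858931-80893750 and Nfix at chr8:87223775-87324243, the last 3 on the minus strand. The sequence below is shown because it is what separates the introduced constructs: the coding bases of codons 493 to 509 of Nfia, the 17 codons that the Δpro#3 mutant lacks. It was read from the annotated transcript Nfia-001, whose coding sequence has 1530 bases including the stop codon. Lower case is the part in exon 10 (36 bases, chr4:97748472-97748507), and capitals mark the part in the last exon, 11 (15 bases, chr4:97777909-97777923).

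Nfia codons 493 to 509: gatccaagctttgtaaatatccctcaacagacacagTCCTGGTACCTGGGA

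Reads that fit more than 1 place were dropped by the authors, so stretches shared between paralogs could lower a value. Over all annotated coding transcripts of the members, the longest stretch identical between Nfic and Nfix was 32 bases long and lay in the coding sequence of both. Between Nfib and Nfix the longest coding match was 21 bases. The other pairs shared at most 21 bases, in low-complexity sequence that was not fully coding. The coding matches are shown because they are the closest these genes come to sharing a read, whose length was not given in the sources used here.

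Nfic and Nfix shared stretch: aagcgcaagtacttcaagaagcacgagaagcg
Nfib and Nfix shared stretch: atcaagcagaagtgggcatcc

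RefSeq starts of build GRCm38.p6 were matched for 3 of the 4 members (6 starts, of Nfia, Nfic and Nfix, with none for Nfib). Within 250 bases upstream of these starts, on either strand, there was no TTGGCA (an NFI site of a single arm, found in 12.3% of 32851 windows of the same length), no full NFI palindrome (0.0365%), no TGACGTCA (the cyclic AMP response element, 1.55%), no TGACG (the shorter form, which also lies within it, 17.8%) and no TGACTCA (the AP-1 site, 4.46%).

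The depth was 9567769 to 27230965 fragments per sample (median 17707223). Each paralog value rested on 320 to 12060 fragments, and the median coefficient of variation within a group was 3.81% for Nfib, 6.40% for Nfic and 4.29% for Nfix. Markers of cell type were read beside the labels. All 5 myoblast markers (Myod1, Myf5, Des, Cdh15 and Itga7) were tested in every fit, and their summed FPKM was between 218 and 1441 in all samples. With full-length NFIA all 5 were called lower than in control cells at day 0 (median log2 -1.95), against 35.6% of all genes. At day 7, 4 were lower and none higher, against 41.1% of all genes lower. The 6 adipocyte genes named below summed there to 13363 to 14870 FPKM, against 476 to 558 FPKM for the myoblast markers. Ptprc, Adgre1, Itgam and Cd3e, which define leukocytes, had group means of at most 0.21 FPKM, while Cd68 reached 21.9 FPKM, and the 4 endothelial markers summed to at most 1.43 FPKM. A pair of libraries stood apart. Control day 0 replicate 2 held 7.35 FPKM of Nfia, 1.40 of Eln and 0.717 of Fmod, against at most 0.879, 0.0438 and 0.184 in the other control replicates of day 0. At day 7, the summed adipocyte markers of the Δpro#3 mutant's cells reached 2018 FPKM in replicate 1 and were as low as 613 FPKM in the others. After forskolin, the same sum ranged from 540 to 900 FPKM in the mutant's samples, and Fabp4 from 103 to 386 FPKM. The tests of the paralogs that use either library of the pair are also given without it, while the lists were not counted again.

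Nfia, the introduced gene, was first read as a check on the constructs. In control cells it was nearly silent. The 3 replicates had 0.879, 7.35 and 0.175 FPKM at day 0, 0.0885, 0.253 and 0.0885 FPKM at day 7, and 0.0944, 0.195 and 0.139 FPKM after forskolin, the lowest of them resting on 10 fragments. In full-length NFIA-expressing cells it had 225, 249 and 250 FPKM at day 0, 457, 528 and 460 FPKM at day 7, and 497, 524 and 594 FPKM after forskolin. The Δpro#3 mutant gave 423, 398 and 397 FPKM at day 0, 480, 383 and 374 FPKM at day 7, and 344, 262 and 277 FPKM after forskolin. No infected sample overlapped a control sample. The mutant stood higher than full-length NFIA at day 0 (1.68-fold in mean FPKM, with no overlap) and lower after forskolin (1.83-fold). The first difference was not called in the fit of all 9 samples (log2 0.75 ± 0.54 SE, adjusted p = 0.244), whose pooled spread holds the scattered control samples, and was called when only those groups were fitted (adjusted p = 3.56e-06, limma). The second was called (log2 -0.88 ± 0.10 SE, adjusted p = 1.85e-05). Since these values divide by the gene length of 9643 bases, and the vector carries the coding sequence, they understate the number of introduced transcripts relative to the paralogs.

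The dominant paralogs of these cells were Nfic and Nfix, and Nfib was the lowest in all 9 groups. At day 0, Nfib stood at 9.37, 9.65 and 9.73 FPKM in control cells, at 9.94, 9.91 and 10.4 FPKM with full-length NFIA and at 7.51, 7.24 and 7.09 FPKM with the mutant. At day 7 the same cells had 4.57, 4.90 and 4.40 FPKM, then 6.50, 6.38 and 6.32 FPKM, and 3.06, 3.32 and 3.37 FPKM. After forskolin they had 4.58, 4.06 and 4.33 FPKM, then 3.66, 3.77 and 4.37 FPKM, and 2.79, 2.62 and 2.81 FPKM. All day 0 samples thus lay above all samples of day 7. Ordered by mean, the groups ran from full-length NFIA at day 0 (10.1 ± 0.268 FPKM, SD, n = 3) to the Δpro#3 mutant after forskolin (2.74 ± 0.105 FPKM, SD, n = 3), a 3.67-fold range. Neighbours in this order overlapped only for control cells with and without forskolin and for control cells and full-length NFIA after forskolin.

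Nfic had the smallest range of the paralogs, 3.01-fold between groups. At day 0 it had 47.8, 52.4 and 54.2 FPKM in control cells, 56.9, 55.4 and 54.6 FPKM with full-length NFIA and 37.4, 34.5 and 36.7 FPKM with the Δpro#3 mutant. At day 7 the values were 61.6, 59.1 and 60.9 FPKM, then 51.8, 42.9 and 46.7 FPKM, and 33.8, 41.3 and 35.4 FPKM. Forskolin-treated samples held 49.8, 52.6 and 50.03 FPKM, then 19.6, 22.0 and 18.7 FPKM, and 29.1, 31.0 and 38.6 FPKM. The highest group was control cells at day 7 (60.6 ± 1.29 FPKM, SD, n = 3) and the lowest full-length NFIA after forskolin (20.1 ± 1.71 FPKM, SD, n = 3), each apart from its neighbour. In the middle of the order, control cells at day 0, control cells after forskolin and full-length NFIA at day 7 overlapped one with the next, as did the 3 groups of the Δpro#3 mutant.

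Nfix, the paralog best known in muscle, varied most (5.83-fold between groups). At day 0 it had 38.2, 43.1 and 44.0 FPKM in control cells, 69.3, 70.0 and 69.2 FPKM with full-length NFIA and 39.8, 38.8 and 38.8 FPKM with the Δpro#3 mutant. At day 7 it had 18.2, 17.2 and 18.4 FPKM, then 55.4, 53.8 and 50.9 FPKM, and 19.0, 18.9 and 15.6 FPKM. After forskolin it had 15.4, 15.1 and 14.8 FPKM, then 17.7, 19.03 and 20.0 FPKM, and 12.4, 10.7 and 12.6 FPKM. Only the 2 groups of full-length NFIA without forskolin stood above 50 FPKM, and all other samples of day 7, with or without forskolin, lay at or below 20.0 FPKM.

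**Figure D1:**
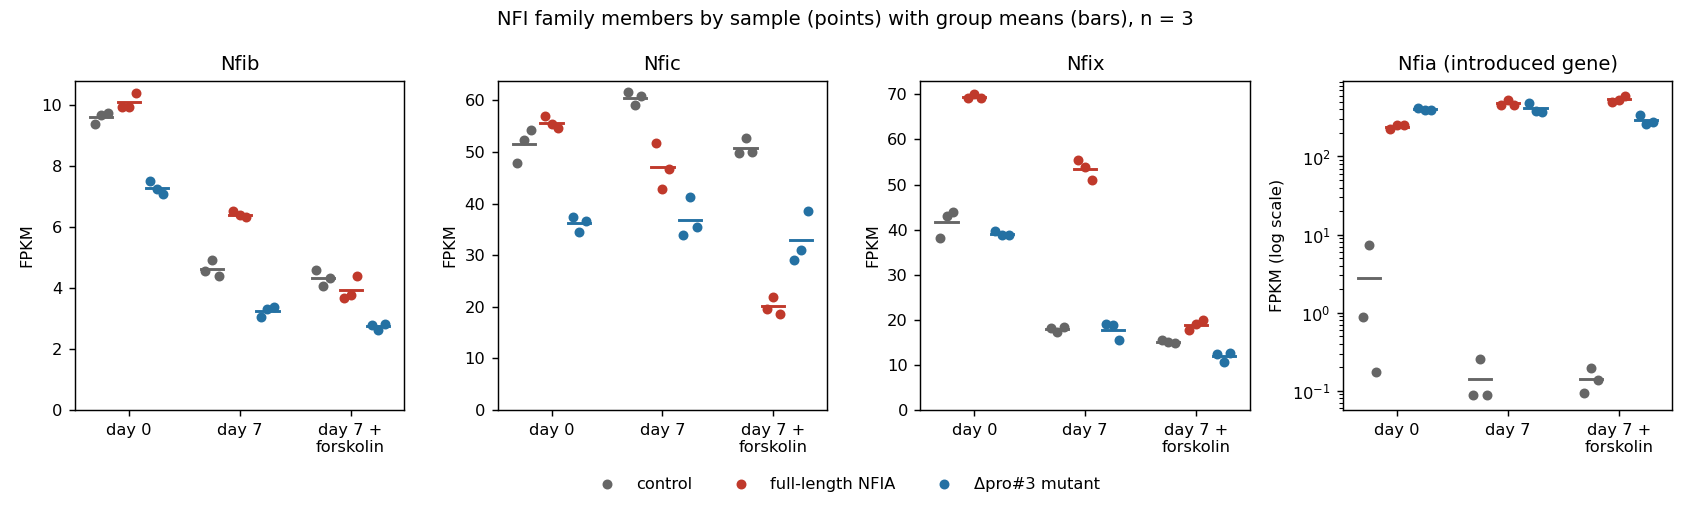
FPKM of Nfib, Nfic, Nfix and the introduced gene Nfia (log axis) in every sample at day 0, day 7 and day 7 with forskolin, with points for samples and bars for group means (n = 3) in grey for control cells, red for full-length NFIA and blue for the Δpro#3 mutant. Nfix with full-length NFIA stayed between 50.9 and 70.0 FPKM until forskolin, after which it lay between 17.7 and 20.0 FPKM.

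The constructs were first compared at each time point, which asks how the paralogs stood with each form of NFIA. Changes are on log2(FPKM + 1), which understates the change of low genes, and were called at an adjusted p-value under 0.05 (limma with Benjamini-Hochberg adjustment over all genes tested). At day 0, Nfix was higher with full-length NFIA than in control cells (log2 0.72 ± 0.05 SE, adjusted p = 9.67e-08), or 1.66-fold in mean FPKM. Nfib (0.07 ± 0.04 SE, adjusted p = 0.127, 95% CI -0.02 to 0.15) and Nfic (0.11 ± 0.05 SE, adjusted p = 0.0506, 95% CI 0.0082 to 0.22) were not called, although no sample overlapped, and Nfic was called without control day 0 replicate 3 (0.15, adjusted p = 0.0192). Processing alternatives also moved the call of Nfic, with adjusted p-values from 0.0148 to 0.26 (limma). The background among the 12105 genes tested was 37.7% higher and 35.6% lower, so 1 call among 3 paralogs is near the background. The Δpro#3 mutant instead had lower Nfib (-0.35 ± 0.04 SE, adjusted p = 1.02e-05) and lower Nfic (-0.50 ± 0.05 SE, adjusted p = 5.17e-06), against 29.7% of all genes called lower and 32.5% higher. Its Nfix overlapped that of control cells (-0.09 ± 0.05 SE, adjusted p = 0.111, 95% CI -0.19 to 0.01), and was called lower only without control day 0 replicate 1 (-0.15, adjusted p = 0.0012) or with limma-voom (-0.09, adjusted p = 0.0485). Without control day 0 replicate 2, these comparisons with control cells kept their direction and their call, and the differences of Nfix were 0.75 and -0.07. Markers of cell type differed in the same samples. All 6 muscle fibre genes named below were called lower than in control cells with either construct. The median log2 differences were -5.89 with full-length NFIA and -3.89 with the mutant. Of the 5 myoblast markers, 5 and 4 were called lower, and none higher. Their part in the paralogs' differences was not tested.

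The constructs differed from each other in all 3 paralogs. At day 0, Nfib (-0.42 ± 0.04 SE, adjusted p = 2.24e-06), Nfic (-0.61 ± 0.05 SE, adjusted p = 8.61e-07) and Nfix (-0.81 ± 0.05 SE, adjusted p = 6.68e-08) were lower in the mutant's cells than in those of full-length NFIA, against 31.9% of genes called lower and 33.4% higher. At day 7, all 3 were again lower with the mutant, by 0.80 for Nfib, 0.35 for Nfic and 1.54 for Nfix on the log2 scale, against 29.4% of genes lower and 34.3% higher; the adjusted p-values were 1.87e-06, 0.00431 and 4.93e-08. Nfix then stood 3.00-fold lower in mean FPKM in the mutant's cells, and only 3.88% of all genes were lower by as much on the log2 scale.

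Against control cells at day 7, full-length NFIA had higher Nfix (log2 1.52 ± 0.08 SE, adjusted p = 3.78e-08, 2.98-fold in mean FPKM) and higher Nfib (0.40 ± 0.06 SE, adjusted p = 0.000243). Nfic was lower (-0.36 ± 0.08 SE, adjusted p = 0.00296). The background was 31.3% higher and 41.1% lower (4471 and 4305 genes when scaled). With the Δpro#3 mutant, Nfib was lower (-0.40 ± 0.06 SE, adjusted p = 0.000582) and so was Nfic (-0.71 ± 0.08 SE, adjusted p = 0.000102), against 27.5% of genes lower and 21.3% higher (2753 and 3134 genes when scaled). Its Nfix was 17.8 FPKM against 17.9 FPKM in control cells (-0.01 ± 0.08 SE, adjusted p = 0.907, 95% CI -0.18 to 0.16), a difference whose sign turned with median-ratio scaling (0.045). Without replicate 1 of the mutant at day 7, its differences from control cells were -0.37 for Nfib, -0.65 for Nfic and -0.059 for Nfix, and those from full-length NFIA -0.77, -0.29 and -1.58, with no change of a call. After forskolin, Nfic was lowest with full-length NFIA (-1.30 ± 0.10 SE against control cells, adjusted p = 4.14e-07), against 47% of genes called lower and 25.5% higher (4243 lower and 4196 higher when scaled), and Nfic was higher in the mutant's cells than in those of full-length NFIA, by 0.68 ± 0.10 SE (adjusted p = 0.0001). Scaling left both calls, at -1.11 and 0.54. Nfib (-0.40 ± 0.08 SE, adjusted p = 0.000899) and Nfix (-0.62 ± 0.07 SE, adjusted p = 1.74e-05) were lower in the mutant's cells there, as at day 0 and day 7. Nfix still stood slightly higher with full-length NFIA than in control cells (0.30 ± 0.07 SE, adjusted p = 0.00262; 0.48 when scaled), and Nfib did not differ past the threshold, with a sign that turned with scaling (-0.11 ± 0.08 SE, adjusted p = 0.217; 0.045 when scaled). The Δpro#3 mutant was lower than control cells in all 3 paralogs after forskolin, by 0.51 for Nfib, 0.62 for Nfic and 0.32 for Nfix, against 27.1% of genes called lower and 19.5% higher (2688 and 2826 when scaled). For the mutant against full-length NFIA there, 24.2% of genes were called lower and 42% higher (3805 and 3828 when scaled).

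The next comparison asks how the paralogs changed from day 0 to day 7 in each kind of cell. In control cells, Nfib fell (log2 -0.91 ± 0.05 SE, adjusted p = 1.27e-11), Nfix fell (-1.18 ± 0.06 SE, adjusted p = 3.6e-11) and Nfic rose a little (0.23 ± 0.07 SE, adjusted p = 0.00698). In mean FPKM these were a 2.07-fold fall, a 2.33-fold fall and a 1.18-fold rise. Of 12408 genes, 42.7% were called lower and 36% higher, so the number of calls is near the background, but only 11.4% and 6.90% of all genes fell as far as Nfib and Nfix. Without control day 0 replicate 2 the changes were -0.91, -1.15 and 0.25, in the order Nfib, Nfix, Nfic.

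In full-length NFIA-expressing cells the falls were smaller. Nfib fell by 0.58 ± 0.05 SE on the log2 scale (adjusted p = 3.82e-09) and Nfix fell by 0.38 ± 0.06 SE (adjusted p = 4.71e-05). Nfic, which had risen in control cells, fell by 0.24 ± 0.07 SE (adjusted p = 0.00584). All genes fell by a median of 0.11 in these cells, which median-ratio scaling brought to 0.01; the scaled changes were -0.45 for Nfib, -0.23 for Nfix and -0.092 for Nfic, and the last was no longer called (adjusted p = 0.25). The background was 46.5% of genes lower and 33.2% higher, or 4707 lower and 5037 higher of the same genes when scaled.

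In Δpro#3 mutant-expressing cells Nfib and Nfix fell too. Nfib fell by 0.96 ± 0.05 SE (adjusted p = 6.93e-12) and Nfix fell by 1.10 ± 0.06 SE (adjusted p = 9.31e-11), which scaling brought to -0.85 and -0.97. Nfic did not change past the threshold (0.02 ± 0.07 SE, adjusted p = 0.792, 95% CI -0.13 to 0.17), and its direction turned without replicate 2 of day 0 (-0.012) or of day 7 (-0.061). Here 46.7% of genes were called lower and 32.8% higher, or 4881 and 4846 when scaled. Without replicate 1 of day 7, the values were -0.93 for Nfib, -1.14 for Nfix and 0.079 for Nfic.

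Changes past 3-fold in FPKM + 1 were also counted, and no paralog had one over time. Over all genes, the called changes past 3-fold were 3.65% higher and 3.05% lower in control cells, 5.38% and 4.71% with full-length NFIA, and 3.91% and 2.93% with the Δpro#3 mutant.

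The difference between cells in this change was tested directly. With full-length NFIA, the change over time lay above that of control cells for Nfix (0.80 ± 0.09 SE, adjusted p = 6.8e-07) and Nfib (0.33 ± 0.07 SE, adjusted p = 0.000243) and below it for Nfic (-0.47 ± 0.10 SE, adjusted p = 0.000532). Of all genes, 31.1% had a change called higher than in control cells and 40.1% lower, so 3 calls of 3 say little by number. Without control day 0 replicate 2 the differences were 0.78 for Nfix, 0.33 for Nfib and -0.48 for Nfic, all called. For the Δpro#3 mutant against control cells no paralog was called. The differences were -0.05 for Nfib (95% CI -0.19 to 0.09, adjusted p = 0.576), -0.21 for Nfic (95% CI -0.42 to 0.0026, adjusted p = 0.101) and 0.08 for Nfix (95% CI -0.12 to 0.27, adjusted p = 0.521), while 18.9% of all genes were called higher and 25.9% lower. With median-ratio scaling the same split was 2845 higher and 2510 lower, and the difference of Nfib became 0.0031. Without control day 0 replicate 2 the differences were -0.053, -0.22 and 0.054 for Nfib, Nfic and Nfix, and without the mutant's day 7 replicate 1 they were -0.016, -0.15 and 0.031, none called. The mutant against full-length NFIA differed in Nfix (-0.72 ± 0.09 SE, adjusted p = 3.14e-06) and Nfib (-0.38 ± 0.07 SE, adjusted p = 8.34e-05), against 29.5% of genes lower and 33.9% higher. For Nfic the difference was called in this fit only narrowly (0.26 ± 0.10 SE, adjusted p = 0.0336) and was lost in 3 alternative fits and in 6 of the 12 that left out 1 sample. Without the mutant's day 7 replicate 1, these differences were -0.77 for Nfix, -0.35 for Nfib and 0.32 for Nfic, all called. These 3 comparisons use the same samples and are not independent of each other.

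Other features of the cells changed over the same days. All 5 cell cycle genes (Mki67, Top2a, Ccnb1, Cdk1 and Birc5) fell in each kind of cell, with summed levels of 107 to 109 FPKM in control cells, 294 to 300 FPKM with full-length NFIA and 126 to 136 FPKM with the mutant at day 0, and 15.5 to 30.5 FPKM in all cells at day 7, while 42.7%, 46.5% and 46.7% of all genes fell in control, full-length NFIA and mutant cells. All 6 muscle fibre genes (Myog, Ckm, Acta1, Myh3, Tnnt3 and Mylpf) rose in each kind of cell, to sums of 9270 to 10793 FPKM in control cells, 1556 to 2119 FPKM with full-length NFIA and 10369 to 10797 FPKM with the mutant at day 7. Of the 6 adipocyte genes (Fabp4, Adipoq, Plin1, Lpl, Cd36 and Cidec), 6, 6 and 5 rose in control, full-length NFIA and mutant cells, to sums of 344 to 384, 13363 to 14870 and 613 to 2018 FPKM, while 36%, 33.2% and 32.8% of all genes rose. Their part in the paralogs' changes was not tested, and in bulk RNA fewer cells of a type and less RNA per cell cannot be told apart.

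The last comparison asks how the paralogs responded to forskolin at day 7. The treatment was read first from 8 genes that cyclic AMP is known to induce early, of which 7 were tested. The number called higher was 6 of 7 in control cells, 7 of 7 with full-length NFIA and 7 of 7 with the Δpro#3 mutant, with median log2 changes of 0.81, 2.20 and 0.98 against medians over all genes of -0.05, -0.15 and -0.06 and called-higher shares of 7.05%, 13.9% and 11.9%. Nr4a1, a nuclear receptor gene of the immediate early response, rose from 15.5 to 28.2 FPKM in control cells, from 12.2 to 126 FPKM with full-length NFIA and from 10.3 to 19.9 FPKM with the mutant. For full-length NFIA against control cells, 6 of the 7 genes had a larger rise, against 9.16% of all genes.

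All 3 paralogs fell in full-length NFIA-expressing cells after 4 h of forskolin. Nfix fell by 1.45 ± 0.07 SE on the log2 scale (adjusted p = 2.25e-10), or 2.82-fold in mean FPKM, from 50.9 to 55.4 FPKM in the untreated samples to 17.7 to 20.0 FPKM. Nfic fell by 1.19 ± 0.10 SE (adjusted p = 3.85e-08), or 2.35-fold. Nfib fell by 0.59 ± 0.07 SE (adjusted p = 1.45e-06), or 1.63-fold, and no treated sample of the paralogs overlapped an untreated one. Of 12245 genes, 41.5% were called lower and 13.9% higher, so a fall as such was common, but only 0.261% of all genes fell as far as Nfix and 0.8% as far as Nfic, against 9.74% for Nfib. The median of all genes was -0.15, and -0.04 after median-ratio scaling, which changed the calls to 3491 lower and 2737 higher and the paralogs to -1.32 for Nfix, -1.06 for Nfic and -0.48 for Nfib, all still called. No paralog passed 3-fold in FPKM + 1 in any of the 3 kinds of cell; past 3-fold, 0.245% of genes were higher and 0.147% lower in control cells, 0.596% and 0.147% with full-length NFIA, and 0.457% and 0.131% with the mutant. The introduced Nfia was not called in the same samples (0.16 ± 0.11 SE, adjusted p = 0.224; 0.30 and called, adjusted p = 0.0324, when scaled).

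In control cells the response was small. Nfix fell by 0.23 ± 0.07 SE (adjusted p = 0.0367), with no overlap between treated and untreated samples, but without the call under scaling (-0.18, adjusted p = 0.122) or in 5 of the 6 fits that left out 1 of these samples. Nfic (-0.25 ± 0.10 SE, adjusted p = 0.0794, 95% CI -0.45 to -0.05) and Nfib (-0.08 ± 0.07 SE, adjusted p = 0.444, 95% CI -0.22 to 0.06) were not called. Here 13.5% of genes were called lower and 7.05% higher, or 1044 lower and 1119 higher when scaled.

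In Δpro#3 mutant-expressing cells Nfix fell by 0.54 ± 0.07 SE (adjusted p = 3.19e-05), 1.49-fold in mean FPKM, and 5.18% of all genes fell as far. Nfib fell by 0.18 ± 0.07 SE (adjusted p = 0.0369), a call that scaling, a fit without the filter, a fit of only these groups and 5 of the 6 fits that left out 1 of these samples each ended. Nfic was not called (-0.16 ± 0.10 SE, adjusted p = 0.196, 95% CI -0.37 to 0.04), but was without forskolin-treated replicate 3 (-0.28, adjusted p = 0.0256). The background was 23.9% lower and 11.9% higher, or 2358 lower and 1784 higher when scaled. Of the 6 adipocyte genes, 5 were called lower and 1 higher in the same samples (median log2 -1.60, against -0.06 over all genes). These samples include day 7 replicate 1, whose adipocyte sum stood apart. None of the 6 was called in control cells, and 1 was higher and 1 lower with full-length NFIA. Their part in the paralogs' responses was not tested. Without day 7 replicate 1 of the mutant, Nfix changed by -0.49 and Nfib by -0.22, both called, and Nfic by -0.22, not called. The introduced Nfia was lower after forskolin in these cells (-0.49 ± 0.11 SE, adjusted p = 0.00236), unlike in those with full-length NFIA, and the difference between the constructs was called (-0.65 ± 0.15 SE, adjusted p = 0.00657). Both calls were lost with a pseudocount of 0.1 (adjusted p = 0.0719 and 0.126) and in 1 fit of all 27 samples (adjusted p = 0.31 and 0.388).

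**Figure D2:**
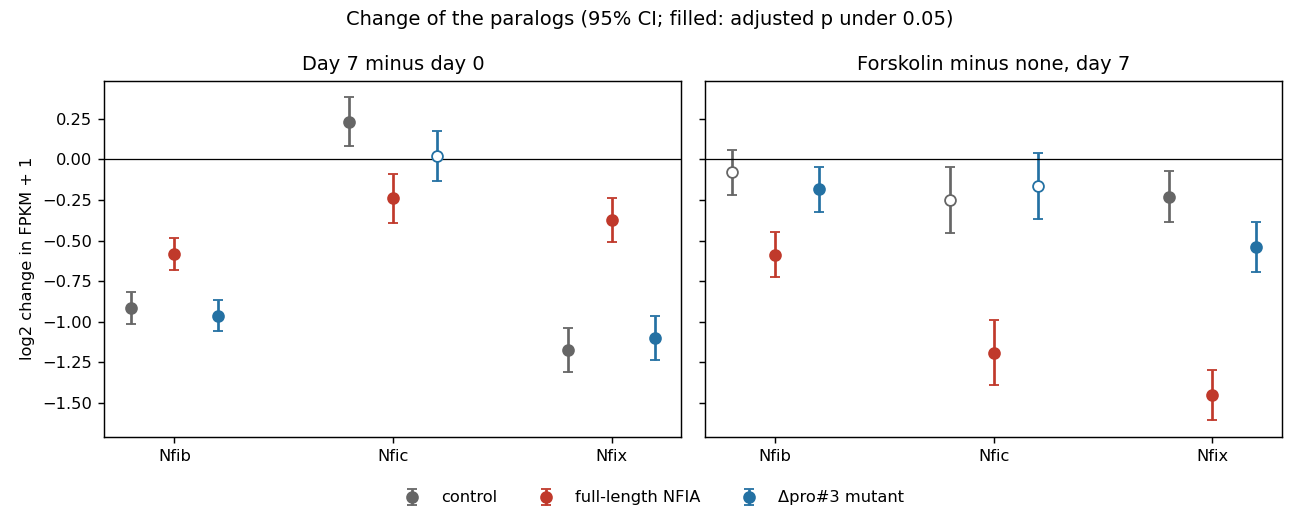
Log2 change in FPKM + 1 of Nfib, Nfic and Nfix from day 0 to day 7 (left) and with forskolin at day 7 (right), with 95% confidence intervals, in grey for control cells, red for full-length NFIA and blue for the Δpro#3 mutant, with filled points for an adjusted p-value under 0.05. With full-length NFIA the change of Nfix was -0.38 over time and -1.45 with forskolin, against -1.18 and -0.23 in control cells; both panels share the untreated day 7 samples.

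The forskolin responses were then compared between cells. With full-length NFIA the response lay below that of control cells by 1.22 ± 0.10 SE for Nfix (adjusted p = 4.69e-07), by 0.94 ± 0.14 SE for Nfic (adjusted p = 7.66e-05) and by 0.51 ± 0.09 SE for Nfib (adjusted p = 0.000598). Over all genes 21.5% were called lower and 9.16% higher, and 0.719%, 2.11% and 10.2% of genes had a difference as low. The median over all genes was -0.10; scaled, it was -0.03 with 1862 genes lower and 1539 higher, and the paralogs were at -1.14, -0.86 and -0.44, all called. For the Δpro#3 mutant against control cells no paralog was called, with differences of -0.31 for Nfix (95% CI -0.53 to -0.09, adjusted p = 0.104), 0.08 for Nfic (95% CI -0.20 to 0.37, adjusted p = 0.793) and -0.10 for Nfib (95% CI -0.30 to 0.09, adjusted p = 0.603), and 2.5% of all genes were called lower and 2.47% higher (306 and 302 genes, but 670 and 594 in 1 fit of all 27 samples, and as few as 193 or as many as 476 in one direction without single samples, the latter without forskolin-treated mutant replicate 1). For the mutant against full-length NFIA all 3 responses were called higher, by 1.02 ± 0.14 SE for Nfic (adjusted p = 5.95e-05), 0.91 ± 0.10 SE for Nfix (adjusted p = 1.55e-05) and 0.40 ± 0.09 SE for Nfib (adjusted p = 0.00506), against 15.8% of genes higher and 5.88% lower. With scaling this background was 1187 higher and 1126 lower, and all 3 paralogs were still called. Without the mutant's day 7 replicate 1 they were 0.97 for Nfic, 0.96 for Nfix and 0.37 for Nfib, all called, and the mutant's differences from control cells were 0.027, -0.26 and -0.14, none called. Time and forskolin comparisons share the untreated day 7 samples, so a high value there moves both; the values themselves are side by side above.

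**Figure D3:**
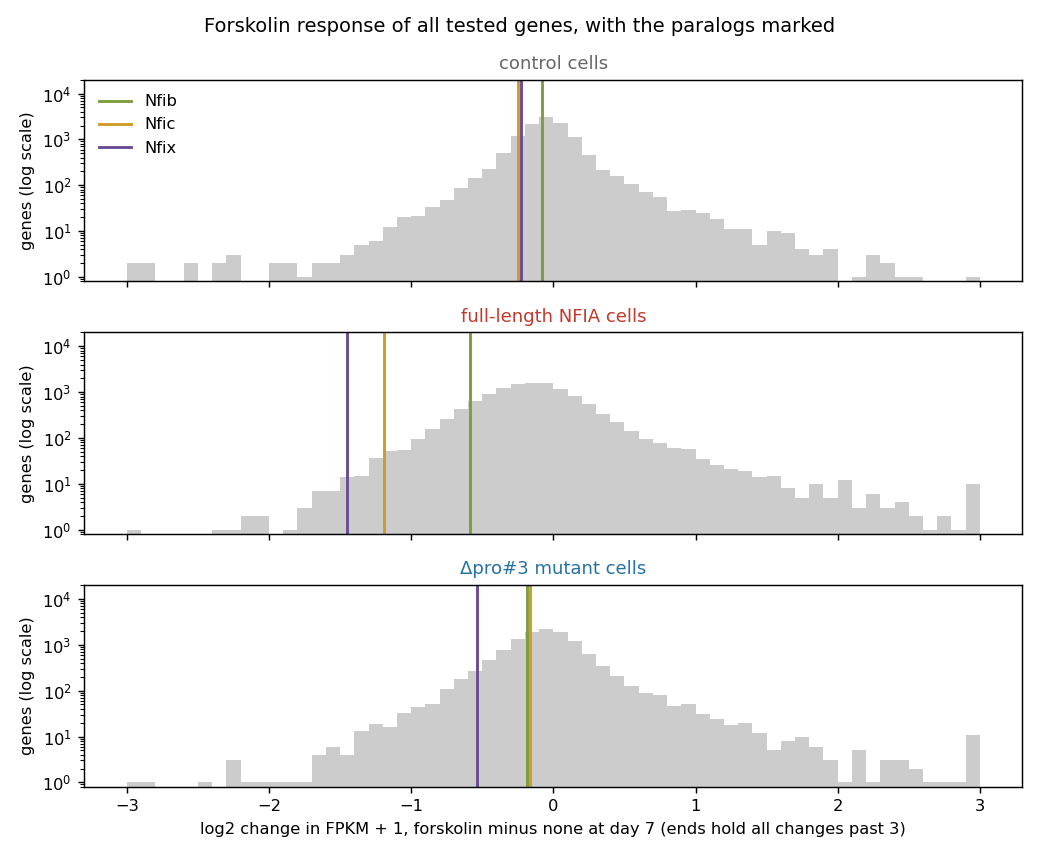
Histograms of the log2 change in FPKM + 1 with forskolin at day 7 over the 12245 genes tested, in bins of 0.1 (gene counts on a log axis), in each of the 3 kinds of cell, with vertical lines for Nfib, Nfic and Nfix. Nfix (-1.45) and Nfic (-1.19) lie in the thin left tail with full-length NFIA, while in control cells both lie within the main body (-0.23 and -0.25).

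The makeup of the endogenous family was described by the sum of Nfib, Nfic and Nfix and by each paralog's share of it. In control cells the sum was 103 ± 6.57 FPKM (SD, n = 3) at day 0, 83.1 ± 1.66 FPKM at day 7 and 70.3 ± 1.37 FPKM after forskolin. With full-length NFIA it was 135 ± 1.02, 107 ± 5.91 and 43.0 ± 1.90 FPKM, so it was the highest of the cells before forskolin, and its unscaled mean was the lowest after it, with samples (41.0 to 44.8 FPKM) that overlapped those of the mutant (44.3 to 54.0 FPKM). With the Δpro#3 mutant it was 82.6 ± 2.08, 57.9 ± 4.87 and 47.6 ± 5.56 FPKM. In control cells Nfic made up 50.1% of the sum at day 0 and 72.9% at day 7, while Nfix went from 40.6% to 21.6%. The mutant moved the same way, with Nfix at 47.4% and then 30.8%. With full-length NFIA, Nfix held 51.4 ± 0.441% at day 0 and 49.97 ± 1.95% at day 7 (SD, n = 3), and the samples overlapped, as they did for Nfic (41.2% and 44.0%), while Nfib went from 7.455% to 5.995% with no overlap. After forskolin the shares of Nfix were 21.5%, 44.0% and 25.2% in control, full-length NFIA and mutant cells. Of the 24 comparisons of shares and sums over time and with forskolin, 17 had no overlap between the samples, which gives p = 0.1 in the exact 2-sided permutation test, the smallest that 3 against 3 samples allow (0.141 after adjustment over the 24), so none can be called at 0.05.

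**Figure D4:**
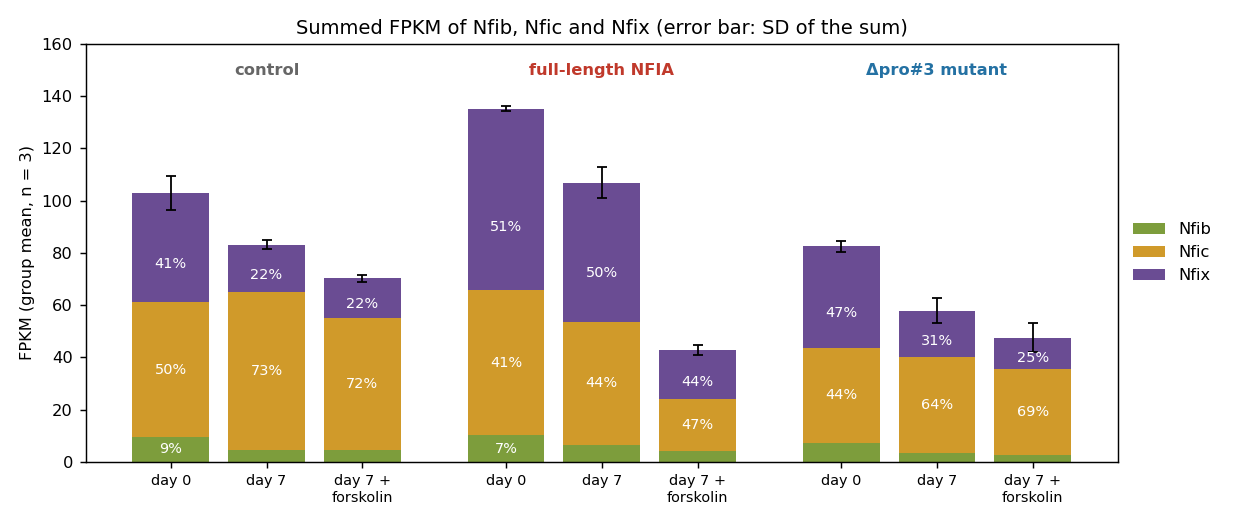
Stacked group means (n = 3) of the FPKM of Nfib, Nfic and Nfix by cell type and time point, with shares of the sum as percentages where they fit and the SD of the sum as error bar. The sum with full-length NFIA goes from 135 FPKM at day 0 to 43.0 FPKM after forskolin, and Nfix holds 22% of the sum in control cells at day 7 but 50% with full-length NFIA.

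In the infected cells the paralogs were a minority of the family's FPKM. Nfia held 64.1 ± 1.53% of the summed FPKM of the 4 members with full-length NFIA at day 0, 81.8 ± 1.80% at day 7 and 92.6 ± 0.581% after forskolin (SD, n = 3). With the Δpro#3 mutant the shares were 83.1%, 87.6% and 85.9%, and in control cells 2.54 ± 3.48%, 0.173 ± 0.118% and 0.202 ± 0.0682% (SD, n = 3). The first rests on replicate 2 of day 0 and was 0.537% without it. If the fragments of Nfia are divided by the coding length of 1530 bases in place of the gene length, the shares with full-length NFIA become 91.8%, 96.6% and 98.7%.

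The genes that act around the family were counted from lists written by hand. Of 10 adipogenic factors that act with NFIA, 8 were tested in the time and forskolin fits, and Ebf2 and Prdm16 were at most 0.01 FPKM in every group. Zfp423 passed the filter mainly through full-length NFIA cells. It had 1.91 FPKM there at day 7, against 0.121 FPKM in control and 0.351 FPKM in mutant cells. Its calls in the counts below therefore carry no weight of their own. At day 7, 6 of the 8 were higher and none lower with full-length NFIA than in control cells (median log2 difference 1.32, against -0.08 over all genes, of which 31.3% were higher and 41.1% lower), and with the Δpro#3 mutant 3 were higher and none lower (median 0.17, against -0.04, with 21.3% of all genes higher and 27.5% lower). Over time, 5 rose and 2 fell in control cells, 5 rose and 3 fell with full-length NFIA, and 2 rose and 4 fell with the mutant (medians 0.48, 0.50 and -0.29). The shares of all genes that rose and fell were 36% and 42.7%, 33.2% and 46.5%, and 32.8% and 46.7% in these cells. With forskolin, 3 rose and 2 fell in control cells, 3 rose and 4 fell with full-length NFIA, and 2 rose and 3 fell with the mutant (medians 0.18, -0.41 and -0.21). Over all genes 7.05% rose and 13.5% fell, 13.9% and 41.5%, and 11.9% and 23.9%. The genes named next were chosen after their values were seen. Cebpa, a C/EBP factor of late adipogenesis, stood at 89.0 FPKM with full-length NFIA at day 7 against 8.63 FPKM in control cells, and fell with forskolin there (log2 -0.87 ± 0.13 SE, adjusted p = 3.16e-05), as the paralogs did. Pparg, the master regulator of adipogenesis, stood at 39.5 FPKM and 34.96 FPKM without and with forskolin, a change that was not called (-0.17 ± 0.07 SE, adjusted p = 0.0533). Ppargc1a, the coactivator of thermogenic genes, rose in the same samples (1.51 ± 0.10 SE, adjusted p = 4.23e-09).

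A list of 8 muscle genes connected with NFIX held 6 tested genes in the time fit. Over time 3 rose and 3 fell in control cells, 2 rose and 1 fell with full-length NFIA, and 4 rose and 2 fell with the mutant (median log2 changes 0.13, 0.07 and 1.51, against -0.06, -0.11 and -0.11 over all genes, and the same shares of all genes as above). In the forskolin fit 7 were tested: 2 rose and 1 fell in control cells, 1 rose and 2 fell with full-length NFIA, and 3 rose and 1 fell with the mutant (medians 0.44, 0.04 and 0.28), again against the shares of all genes given above. Between full-length NFIA and control cells at day 7, 7 were tested, of which 2 were higher and 3 lower with full-length NFIA (median log2 difference 0.12, with 31.3% of all genes higher and 41.1% lower). The members named next, chosen after their values were seen, are the 3 lower ones and do not stand for the list. Ckm and Eno3, muscle enzymes that NFIX is known to activate, stood at 50.8 and 196 FPKM at day 7 with full-length NFIA. Nfix stood at 53.4 FPKM in those cells, the highest of the untreated day 7 groups. In control cells Ckm and Eno3 stood at 393 and 389 FPKM. Myh7, the slow myosin heavy chain gene that NFIX is known to restrain, stood at 5.20 FPKM against 97.9 FPKM and was lower with full-length NFIA (-4.01 ± 0.11 SE, adjusted p = 7.5e-10). The mutant's cells, with Nfix near control (17.8 against 17.9 FPKM), had Ckm at 513, Eno3 at 924 and Myh7 at 42.8 FPKM. All 6 muscle fibre genes were called lower with full-length NFIA than in control cells at day 7 (median log2 -2.64). A part of Nfix in these levels was not tested. Forskolin-treated cells had less Myh7 in all 3 forms, a fall called in each, by 0.50, 0.55 and 0.91 in control, full-length NFIA and mutant cells.

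The genes whose pattern was most like that of each paralog were taken by Pearson's r of log2(FPKM + 1) over all 27 samples among 11578 genes with a mean FPKM of at least 1. These r values describe the 9 groups and share depth and library with each other, so no test was made. For Nfix they were Sh3bp1 (r = 0.972), Slc35b4 (0.967) and Mxd4 (0.964), and Mxd4 ran from 62.0 FPKM with full-length NFIA at day 0 to 57.8 FPKM at day 7 and 19.7 FPKM after forskolin. For Nfib they were Lifr (0.974), Itpkb (0.97) and Trim44 (0.968). Nfic had less close neighbours, Rnf187 (0.924), Gtf3a (0.916) and Ldlrad3 (0.898). Between the paralogs, r was 0.91 for Nfib and Nfix, 0.485 for Nfib and Nfic, and 0.367 for Nfic and Nfix.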

How the data were processed

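RNA-seq of C2C12 cells in 9 groups of 3 samples was used, with groups and replicate numbers from the deposited labels. The authors prepared stranded libraries, aligned reads to mm9 with STAR 2.5.3a (name and version per the submitters' processing notes), used reads with a single place in the genome, assigned them to genes by strand and deposited linear FPKM, not scaled further. Dividing each value by what a single fragment is worth gave whole numbers for at least 99.994% of values in a sample (tolerance 0.05), so fragments were worked back for depth and for 1 alternative.

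Fits used limma 3.58.1 in R 4.3.3, and the rest Python 3.11.15, scipy 1.17.1 and matplotlib 3.10.9. Linear models with 1 mean per group and a variance trend were fitted to log2(FPKM + 1) of genes whose mean FPKM over the fitted samples reached 0.5: 18 samples for time, 18 for forskolin and 9 for each time point. p-values are 2-sided and adjusted over all genes of a comparison, and a change past 3-fold was also recorded. Shares used the exact permutation test. The steps were also run on simulated data in which few genes changed, and by large amounts. Those runs do not cover smaller changes, nor data in which many genes move.

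The members and gene lists were chosen with earlier results of these data known. The named genes are the 4 members in full, the lists by counts, and for each paralog the 3 genes with the highest r; Nr4a1, Cebpa, Pparg, Ppargc1a, Ckm, Eno3 and Myh7, taken from the lists, were chosen after their values were seen. The labels do not say whether replicate numbers pair the samples, and the main fits did not pair them. Sequences came from GENCODE vM1 (NCBIM37) and RefSeq promoters (GRCm38.p6).

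Alternatives were a pseudocount of 0.1, median-ratio scaling, no filter, a minimum mean FPKM of 5, no variance trend, the replicate block, limma-voom on fragments, 1 fit of all 27 samples, only the groups compared, and leaving out each sample.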

Additional observations from a re-analysis of the deposited data

Results flagged for a closer look

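The results below stand out because the same change differed between kinds of cells by a test of the difference itself (limma, adjusted p-value under 0.05). For the change from day 0 to day 7, full-length NFIA minus control cells gave 0.33 on the log2 scale for Nfib, -0.47 for Nfic and 0.80 for Nfix. For the introduced Nfia it gave 2.20, a value that says little of the cells: Nfia passed the filter through the infected groups, control cells held 0.0885 to 0.253 FPKM at day 7, where the pseudocount sets the log value, and at day 0 their mean rested on replicate 2. Without that library it was 1.37; it was 3.43 with a pseudocount of 0.1, and with limma-voom it was 3.99 and no longer called (adjusted p = 0.0536). The Δpro#3 mutant minus full-length NFIA gave -0.38 for Nfib, 0.26 for Nfic and -0.72 for Nfix over time, of which that of Nfic lost its call in 3 alternative fits and in 6 of the 12 that left out 1 sample (adjusted p up to 0.101). For the response to forskolin, full-length NFIA minus control cells gave -0.51 for Nfib, -0.94 for Nfic and -1.22 for Nfix. The mutant minus full-length NFIA gave -0.65 for Nfia (not called with a pseudocount of 0.1, adjusted p = 0.126, or in 1 fit of all 27 samples, adjusted p = 0.388), 0.40 for Nfib, 1.02 for Nfic and 0.91 for Nfix. No formal test for single outlying samples was made in groups of 3; the libraries that stood apart are described by their values.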

How the results depend on the processing

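Median-ratio scaling weakened the change of Nfic over time with full-length NFIA to -0.092, of Nfix with forskolin in control cells to -0.18 and of Nfib with forskolin in Δpro#3 mutant cells to -0.15, and turned the sign of 3 differences that were not called (Nfib over time, mutant minus control, 0.0031; Nfix, mutant minus control at day 7, 0.045; Nfib, full-length NFIA minus control after forskolin, 0.045). For the difference of Nfic over time between mutant and full-length NFIA (0.26), the call was lost with no filter (adjusted p = 0.0516), in 1 fit of all 27 samples (0.0665) and with only the groups compared (0.0554). With no filter the calls of Nfix in control cells (-0.23, 0.0515) and Nfib in mutant cells (-0.18, 0.0512) with forskolin were lost, and the latter also with only the groups compared (-0.18, 0.102). Nfic with forskolin in control cells (-0.25) became called in 1 fit of all samples (0.0331) and with only the groups compared (0.004), as did the difference of Nfix with forskolin between mutant and control cells (-0.31) in 1 fit of all samples (0.0392). The cause was not tested. Leaving out 1 sample at a time moved some calls or signs: Nfic over time in mutant cells (-0.061 to 0.079), its difference from control (-0.29 to -0.15) and from full-length NFIA (0.18 to 0.33, the call lost without replicates 1 or 2 of full-length NFIA at day 0, 2 or 3 of it at day 7, or 2 of the mutant at either day), Nfix with forskolin in control cells (-0.26 to -0.21, called only without untreated replicate 2), Nfib (-0.22 to -0.16, called only without untreated replicate 1) and Nfic (-0.28 to -0.082) with forskolin in mutant cells, and the differences of mutant and control with forskolin for Nfic (-0.032 to 0.17) and Nfix (-0.40 to -0.24). Without forskolin-treated mutant replicate 3, Nfic in mutant cells was called (-0.28), and without mutant day 7 replicate 3 so was the difference of Nfix (-0.40); without mutant day 7 replicate 2 the difference of Nfic over time from control was called (-0.29). Of the introduced Nfia, the fall with forskolin in mutant cells and its difference from full-length NFIA lost their calls with a pseudocount of 0.1 and in 1 fit of all samples, and the difference over time between full-length NFIA and control cells lost its call with limma-voom (3.99, adjusted p = 0.0536). Not called in any case, Nfia turned sign over time in mutant cells (-0.099 to 0.080) and with forskolin in control cells (-0.032 to 0.069), and Nfix between mutant and control at day 7 (-0.059 to 0.076). Counts over all genes moved past 1.5 times for genes lower with forskolin in control cells (1651, scaled 1044), higher with full-length NFIA (1698, scaled 2737), for the difference of mutant and control (302 higher and 306 lower; 594 and 670 in 1 fit of all samples; 193 to 476 without single samples) and of mutant and full-length NFIA (1932 higher and 720 lower; 1187 and 1126 scaled). On average, samples with the same number did not deviate together (mean correlation -0.0019 over time and 0.018 with forskolin), so the replicate block is given only here. Single pairs ranged from -0.19 to 0.13 over time and from -0.18 to 0.36 with forskolin. The block changed no call of a paralog over time or with forskolin, with Nfix at -1.45 and Nfic at -1.19 with full-length NFIA. With a minimum mean FPKM of 5, Nfib was below the filter in the forskolin fits and gave no value. Genes below a mean of 0.5 FPKM were not tested at this depth.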
